A study of Mus musculus with 16 samples.

Results

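The 40 genes described here encode cell adhesion molecules of the synapse and were taken by name from a list that spans 12 families: 2 neurexins, 3 neuroligins, 4 LRRTM proteins, 3 calsyntenins, 3 cerebellins, 3 latrophilins, 3 FLRT proteins, 5 SLITRK proteins, 5 SALM proteins (the Lrfn genes), 2 IL1RAPL proteins, 3 SynCAM proteins (the Cadm genes) and 4 contactin-associated proteins (the Cntnap genes). The list was chosen with earlier results of these data known. All 40 were found among the 55385 genes of the tables, and all 40 were among the 17222 genes with enough counts to be tested. RNA came from primary cultures of the hippocampus of newborn C57Bl/6N mice, in 16 libraries, 4 for each combination of shRNA and treatment, and the study calls each replicate an independent neuronal preparation. Every culture, controls included, was infected on day 4 in vitro with a recombinant adeno-associated virus. The virus expresses an shRNA from the U6 promoter and GFP from the chicken β-actin promoter, neither of which is limited to neurons. In its account of injected mice, the paper states that the viral serotype was chosen for its tropism for neurons. The shRNA was Control-shRNA or Dnmt3a1-shRNA, which is directed at the long isoform of the DNA methyltransferase gene Dnmt3a and is represented by 1 construct only. Cultures were left at baseline or treated for 4 h with 50 µM bicuculline, a blocker of GABA-A receptors that makes the cultured network fire in bursts. The comparisons ask how these genes respond to activity and whether lower Dnmt3a1 alters them at rest or during activity.

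Synaptic adhesion molecules bridge the cleft between the membranes of a presynaptic and a postsynaptic neuron, where they help to start, align and specify synapses. Presynaptic neurexins bind neuroligins, LRRTMs and, through secreted cerebellins, delta-type glutamate receptors. Presynaptic LAR-type receptor phosphatases bind SLITRKs, some SALMs and IL1RAPL1, and latrophilins bind FLRT proteins and teneurins. Neuroligin-2 is best known at inhibitory synapses, while LRRTM1 and LRRTM2 are best known at excitatory synapses.

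Values are given as CPM, a count scaled to the TMM-adjusted library size, where libraries are compared, and as TPM, which also allows for transcript length, where genes are compared. Calls required an adjusted p below 0.05 in edgeR's quasi-likelihood test (Benjamini-Hochberg over all genes tested) together with an absolute log2 fold change above 0.5. Library totals ran from 28912697 to 29586355 counts. Dnmt3a itself lay at 293 to 324 CPM in the Control-shRNA baseline libraries and at 39.4 to 48 CPM in the Dnmt3a1-shRNA ones, a log2 fold change of -2.81 at baseline and -2.85 with bicuculline (exact two-sided permutation p = 0.0286 in both, the smallest that 4 against 4 libraries can give). All 6 general neuronal markers were present, with summed levels of 4900 to 6470 TPM per library. Glial markers were measured too: 8 astrocyte markers summed to 213 to 508 TPM and 7 oligodendrocyte-lineage markers to 80.7 to 186 TPM, while 6 microglial markers summed to 1.46 to 6.01 TPM, 3 of them (Cx3cr1, P2ry12 and Itgam) below 1 TPM in every library. These are bulk cultures, so fewer cells of a type and less RNA per cell cannot be told apart.

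At rest the family was led by calsyntenin-1. In Control-shRNA baseline cultures Clstn1, a cadherin-related membrane protein that also serves vesicle transport, stood at 599.8 ± 17.3 TPM (SD, n = 4), followed by Nrxn2, a presynaptic neurexin, at 417 ± 16.8 TPM and Cadm3, an immunoglobulin-type adhesion molecule, at 299 ± 34.8 TPM. Nrxn2 was above Cadm3 in every baseline library, while Cadm3 and Clstn3 (289 ± 12.5 TPM) overlapped. In all, 8 of the 40 genes reached 100 TPM or more and 3 lay under 10 TPM, namely Flrt1 at 9.60 ± 0.879, Il1rapl1 at 3.52 ± 0.752 and Il1rapl2 at 1.03 ± 0.382 TPM. Il1rapl2 was the weakest of the set, with counts down to 32 in a library, so the error of counting was relatively largest for it. The spread between libraries was not always so: under Dnmt3a1-shRNA at baseline Il1rapl2 was at 1.33 ± 0.142 TPM and Cbln4 at 15.1 ± 6.14 TPM.

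**Figure D1:**
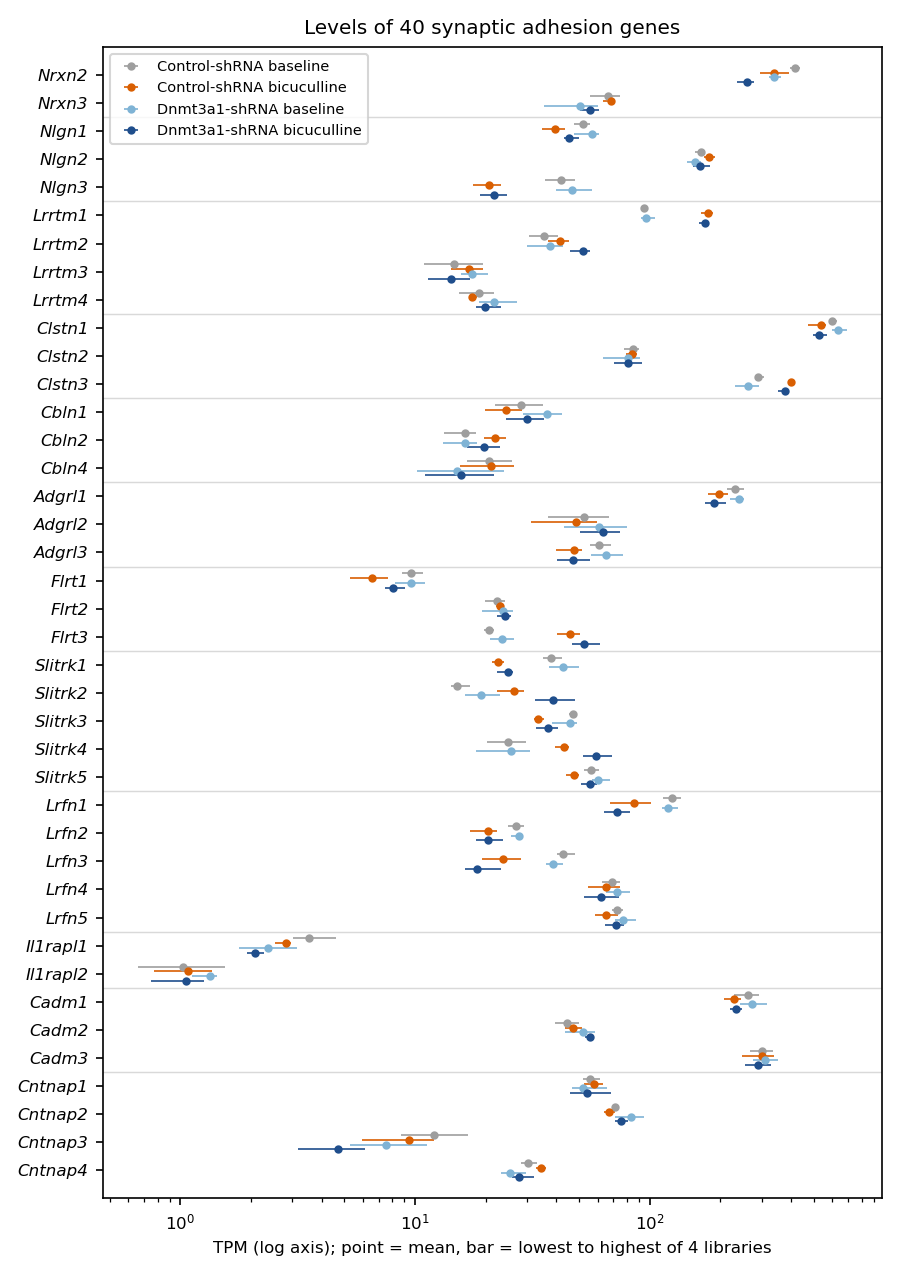
Level of each of the 40 genes in the 4 groups, in TPM on a log axis; points are means of 4 libraries and bars run from the lowest to the highest library. Rows follow the families, and Clstn1 is highest at 599.8 TPM and Il1rapl2 lowest at 1.03 TPM in Control-shRNA baseline cultures.

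In Control-shRNA cultures bicuculline raised 6 of the 40 genes and lowered 3. The increases were in Flrt3, Lrrtm1, Slitrk2, Slitrk4, Clstn3 and Cbln2, from 155% to 255% of the baseline level. Nlgn3, Lrfn3 and Slitrk1 fell to between 59.3% and 68.6% of baseline. Outside the SLITRK family, which held genes called in both directions, no family held more than 1 called gene. The share of the list that was called, 22.5%, lay near that of all genes tested, 21.9% (10.8% higher and 11.1% lower), and the median log2 fold change was 0.06 over the list and 0.01 over all genes. Scaling by library sizes or TPM moved the higher genes among all calls from 49.2% to between 27.9% and 31.0%, while the direction of each of the 9 called genes held.

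In Dnmt3a1-shRNA cultures 6 genes rose with bicuculline and 4 fell, 25% of the list against 25.8% of all genes (12.6% higher and 13.2% lower). Flrt3, Lrrtm1, Slitrk2, Slitrk4 and Clstn3 were called higher and Nlgn3, Lrfn3 and Slitrk1 lower in both shRNA groups, which makes 8 genes. Cbln2 was called in Control-shRNA cultures only, and Lrrtm2 and Lrfn1 in Dnmt3a1-shRNA cultures only. None of these 3 differences is backed by the test of the difference itself, since the interaction of shRNA and treatment called 0 of the 40 genes and 0% of all genes at an adjusted p below 0.05 in edgeR. At an unadjusted p below 0.05, which about 1 in 20 genes would pass without any difference, the interaction held 1 of the 40 genes, Flrt1. DESeq2 called 17 genes for the interaction, 0 of them among the 40.

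**Figure D2:**
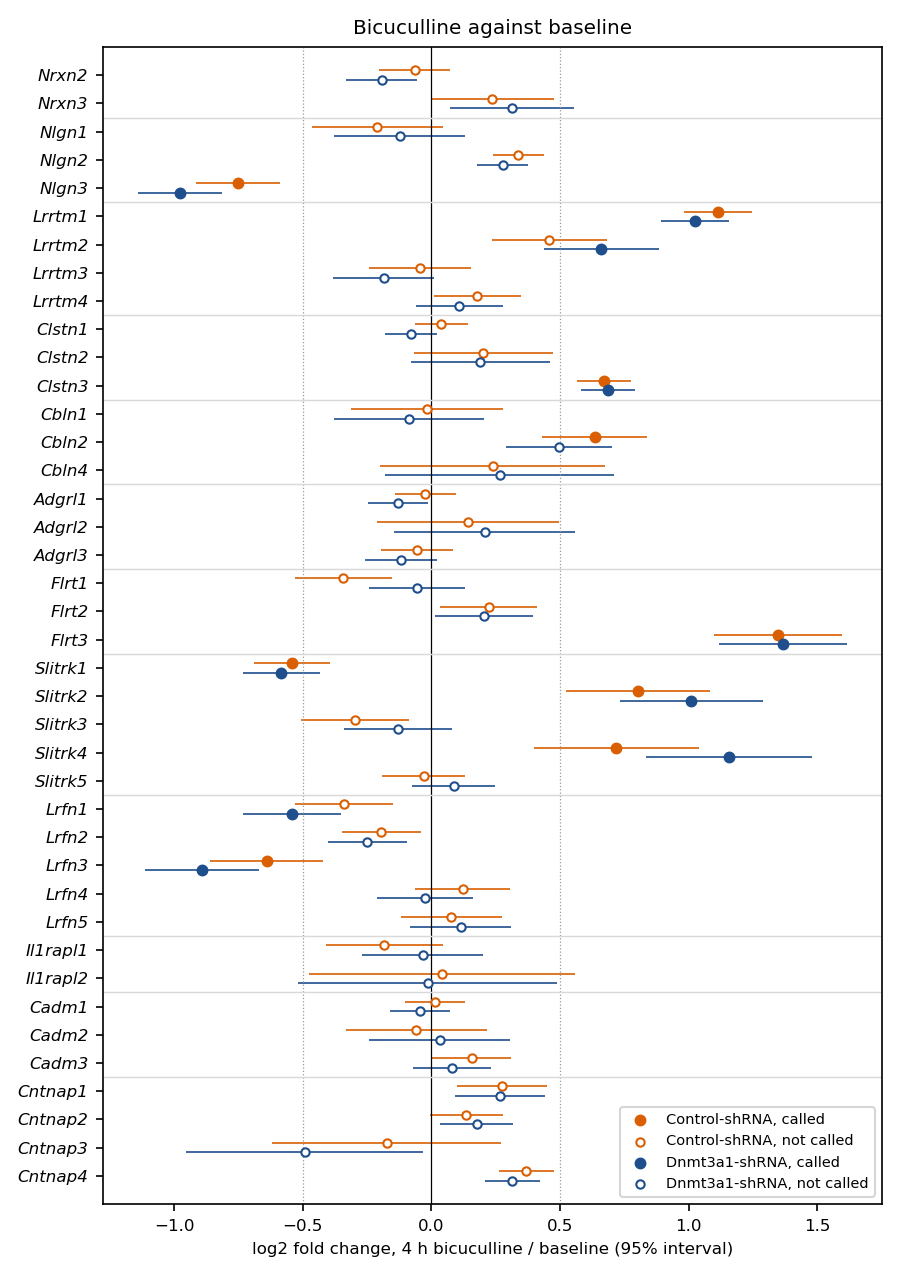
Log2 fold change of bicuculline against baseline with its 95% interval for the 40 genes, in Control-shRNA (orange) and Dnmt3a1-shRNA (blue) cultures; filled points were called and dotted lines mark the fold threshold of 0.5. Flrt3 is farthest to the right, at 1.35 and 1.37, and Nlgn3 farthest to the left, at -0.75 and -0.98.

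Among the neurexins and their direct postsynaptic partners, the neurexins were not called, with log2 fold changes of -0.07 (Nrxn2) and 0.24 (Nrxn3) in Control-shRNA cultures. Nlgn3 (ENSMUSG00000031302.16, chrX:101299168-101325963), a neuroligin of excitatory and inhibitory synapses, stood in Control-shRNA replicates 1 to 4 at 136, 144, 132 and 118 CPM at baseline and at 70.3, 86.5, 85.4 and 72.3 CPM with bicuculline. All treated libraries lay below all baseline libraries (log2 fold change -0.75 ± 0.077 (SE), adjusted p = 4.75e-07). The same separation was present in Dnmt3a1-shRNA cultures, with 152, 152, 164 and 149 CPM at baseline and 74.3, 76.1, 85 and 78.5 CPM after treatment (log2 fold change -0.98 ± 0.077 (SE), adjusted p = 1.50e-08). Nlgn3 shares 3823 exon bases on its own strand with the transcript Gm21986, so the division of reads between the pair is uncertain. The sum of both counts ran from 4013 to 4882 per library at baseline and from 2084 to 2677 with bicuculline in Control-shRNA cultures, again without overlap. Nlgn2, the inhibitory neuroligin, went the other way below the fold threshold, at 389.7 to 417 CPM before and 489.7 to 533 CPM after treatment (log2 fold change 0.34 ± 0.047 (SE), adjusted p = 1.71e-05). On log2(TPM + 1) the change of Nlgn2 was 0.12 and did not pass the adjusted test (limma, adjusted p = 0.134). As a share of the summed TPM of the 3 neuroligins, Nlgn3 went from 16.2% ± 1.64 to 8.62% ± 0.941 (SD, n = 4) and Nlgn2 from 63.8% ± 0.929 to 74.8% ± 1.43, a description that does not depend on how libraries are scaled.

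Lrrtm1 (ENSMUSG00000060780.2, chr6:77242689-77257791), a leucine-rich repeat partner of neurexin that organizes excitatory synapses, stood at 116, 112, 99.5 and 107 CPM in Control-shRNA baseline cultures and at 238, 246, 235 and 223 CPM with bicuculline. Every treated library was above every baseline library, close to 217% of the baseline level (log2 fold change 1.11 ± 0.062 (SE), adjusted p = 2.58e-10). Dnmt3a1-shRNA cultures held 124, 124, 119 and 115 CPM before and 271, 243, 236 and 232 CPM after treatment, again without overlap (log2 fold change 1.03 ± 0.062 (SE), adjusted p = 5.25e-10). Lrrtm2 (ENSMUSG00000071862.3), its close relative, was at 85.7, 76.9, 96.2 and 97.6 CPM at baseline and 118, 111, 125 and 135 CPM with bicuculline under Control-shRNA, higher without overlap but short of the fold threshold (log2 fold change 0.46 ± 0.11 (SE), adjusted p = 0.00201). Under Dnmt3a1-shRNA, Lrrtm2 went from 114, 83.6, 109.5 and 114 CPM to 190.5, 171, 157 and 148 CPM and was called (log2 fold change 0.66 ± 0.11 (SE), adjusted p = 5.69e-05). On log2(TPM + 1) the 2 changes of Lrrtm2 were 0.22, which did not pass the adjusted test, and 0.46, which missed the fold threshold. Its interaction estimate was 0.20, with a 95% interval from -0.11 to 0.52. Lrrtm3 and Lrrtm4 were called in neither shRNA group (log2 fold changes from -0.19 to 0.18), so that Lrrtm1 went from 58% ± 4.19 to 70% ± 1.74 of the summed LRRTM TPM.

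Of the calsyntenins, Clstn3 (ENSMUSG00000008153.12, chr6:124430759-124464794), a postsynaptic cadherin-related protein, was the one gene called. Its 4 Control-shRNA libraries held 512, 496, 482 and 507 CPM at baseline and 834, 797, 778 and 771 CPM with bicuculline, a gap far wider than the spread within either group (log2 fold change 0.67 ± 0.05 (SE), adjusted p = 9.24e-09). Under Dnmt3a1-shRNA the values were 491, 524, 505 and 469 CPM and 819, 783, 785 and 818 CPM (log2 fold change 0.69 ± 0.05 (SE), adjusted p = 5.10e-09). With the TPM values in place of counts, the Control-shRNA change of Clstn3 was 0.46 and missed the fold threshold. Clstn1, the most abundant gene of the list, differed by 0.04 and -0.08.

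Cbln2 (ENSMUSG00000024647.14), a secreted bridge between neurexin and delta-type glutamate receptors, stood at 14.9, 18.3, 18.3 and 17.7 CPM in Control-shRNA baseline cultures and 26.4, 29.8, 27.4 and 24 CPM with bicuculline (log2 fold change 0.63 ± 0.097 (SE), adjusted p = 4.50e-05). Treated libraries were higher without overlap, but library-size scaling (0.47) and TPM (0.40 with a pseudocount of 1) put the change below the fold threshold. In Dnmt3a1-shRNA cultures Cbln2 went from 16.3, 21, 19.1 and 17.5 CPM to 23.8, 28.7, 28.1 and 23.8 CPM, again without overlap, and the log2 fold change of 0.50 ± 0.097 (SE), adjusted p = 4.05e-04, lay just under the threshold. Cbln1 and Cbln4 overlapped between treated and untreated libraries in both shRNA groups.

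Flrt3 (ENSMUSG00000051379.12, chr2:140650914-140671469), a postsynaptic ligand of latrophilins and of the Unc5 guidance receptors, showed the widest change of the list. In Control-shRNA replicates 1 to 4 it was at 41, 34.9, 36.3 and 36.6 CPM at baseline and at 112, 83.1, 87.8 and 95.5 CPM with bicuculline (log2 fold change 1.35 ± 0.12 (SE), adjusted p = 8.02e-08). Dnmt3a1-shRNA libraries held 50.2, 41.5, 46.1 and 44.9 CPM before and 148, 119, 94.5 and 109 CPM after treatment (log2 fold change 1.37 ± 0.12 (SE), adjusted p = 4.70e-08). No treated library overlapped a baseline library. Flrt1 was lower in treated Control-shRNA cultures without reaching the fold threshold (log2 fold change -0.34 ± 0.089 (SE), adjusted p = 0.00471), and the value under Dnmt3a1-shRNA was -0.06 ± 0.088 (SE), adjusted p = 0.643. Flrt3 thereby went from 39.4% ± 1.56 to 60.5% ± 2.68 of the summed FLRT TPM and Flrt1 from 18.2% ± 1.34 to 8.79% ± 1.84. The latrophilins, the receptors of FLRT proteins on the other side of the cleft, were not called, with log2 fold changes from -0.06 to 0.14 in Control-shRNA cultures.

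SLITRK proteins are postsynaptic leucine-rich repeat partners of LAR-type phosphatases, and their genes divided in their response. Slitrk2 (ENSMUSG00000036790.5, chrX:66649318-66661393) stood at 39.1, 33.4, 37.7 and 37.6 CPM at baseline and 75.5, 55, 59.8 and 67.6 CPM with bicuculline under Control-shRNA (log2 fold change 0.80 ± 0.13 (SE), adjusted p = 9.53e-05). Under Dnmt3a1-shRNA it went from 53.1, 45.6, 53.9 and 52.1 CPM to 138, 94, 79.7 and 101 CPM (log2 fold change 1.01 ± 0.13 (SE), adjusted p = 5.81e-06). Treated and baseline libraries did not overlap in either group, and replicate 1 was the highest of the treated libraries in both. Slitrk4 (ENSMUSG00000046699.14, chrX:64264885-64276996), which lies on the X chromosome as Slitrk2 does, held 61.5, 50, 65.7 and 74.8 CPM at baseline and 108, 92.4, 103 and 111 CPM with bicuculline under Control-shRNA (log2 fold change 0.72 ± 0.15 (SE), adjusted p = 9.80e-04). In Dnmt3a1-shRNA cultures it went from 79.6, 47.8, 74.3 and 76.4 CPM to 198, 140.0, 141 and 142 CPM (log2 fold change 1.16 ± 0.15 (SE), adjusted p = 6.89e-06), with replicate 2 far below the other baseline libraries and replicate 1 far above the other treated ones. The interaction estimate of Slitrk4 was 0.44, with a 95% interval from -0.01 to 0.89, and did not pass the adjusted test.

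Slitrk1 (ENSMUSG00000075478.3, chr14:108908800-108914158) moved against Slitrk2 and Slitrk4. It was at 92.6, 87.2, 98 and 99.5 CPM at baseline and 65.5, 62, 65 and 66.4 CPM with bicuculline under Control-shRNA (log2 fold change -0.54 ± 0.071 (SE), adjusted p = 7.76e-06), and at 122, 103, 121 and 114 CPM and 86.1, 69.7, 74.1 and 77.2 CPM under Dnmt3a1-shRNA (log2 fold change -0.58 ± 0.07 (SE), adjusted p = 2.51e-06). All treated libraries were below all baseline libraries of the same shRNA. Slitrk3 and Slitrk5 were not called under Control-shRNA. Slitrk3 was lower without overlap, short of the fold threshold (-0.30 ± 0.1 (SE), adjusted p = 0.0236), and the log2 fold change of Slitrk5 was -0.03. Within the summed SLITRK TPM of Control-shRNA cultures, Slitrk2 went from 8.32% ± 0.499 to 15.2% ± 1.21, Slitrk4 from 13.6% ± 1.59 to 24.9% ± 0.468 and Slitrk1 from 20.9% ± 0.619 to 13.1% ± 0.692. These shares were computed after the responses were seen and carry no test.

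**Figure D3:**
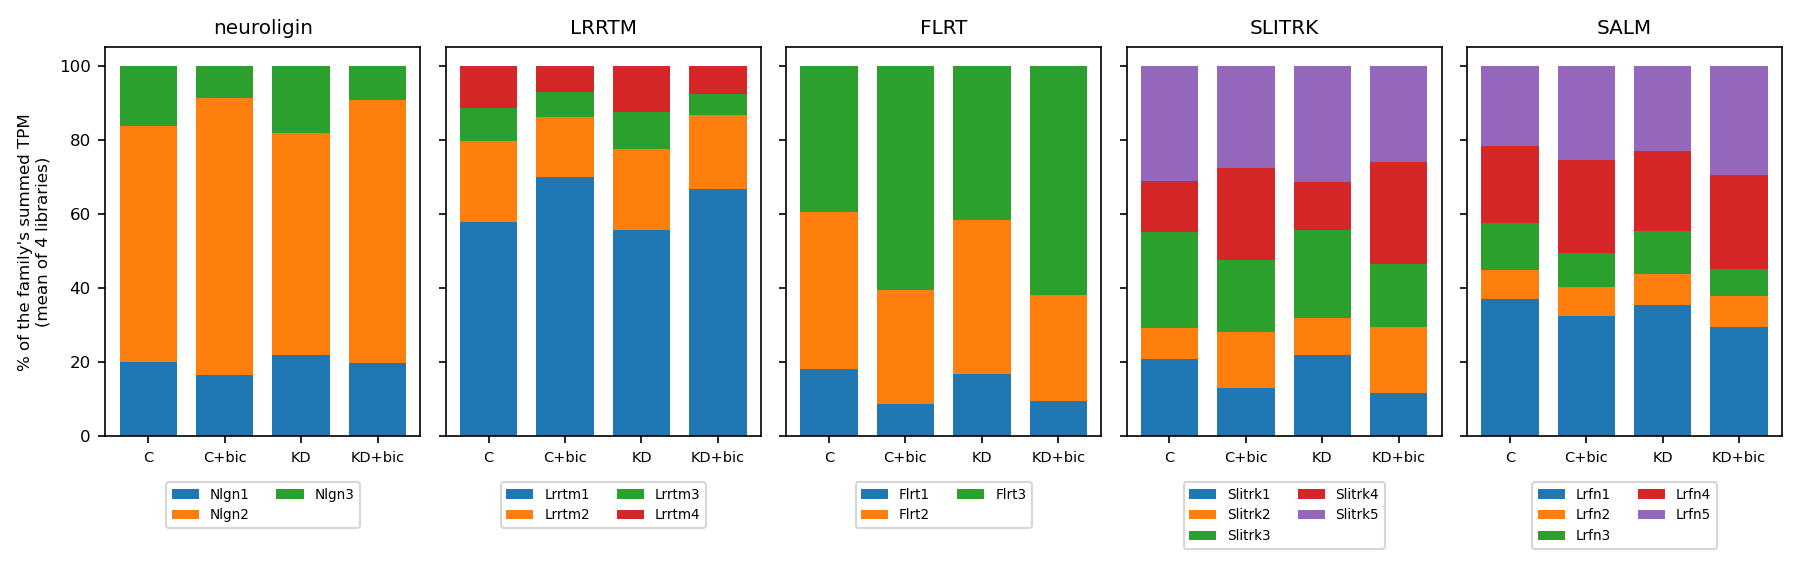
Share of each gene in the summed TPM of its family, in percent, as the mean of 4 libraries in each group (C, Control-shRNA; KD, Dnmt3a1-shRNA; bic, 4 h bicuculline). With bicuculline the Lrrtm1, Flrt3, Slitrk2 and Slitrk4 segments are taller and the Nlgn3 and Slitrk1 segments shorter under both shRNAs.

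SALM proteins are postsynaptic leucine-rich repeat proteins, and their called members fell. Lrfn3 (ENSMUSG00000036957.8, chr7:30355489-30362772) stood at 55.9, 61.5, 49.8 and 53 CPM at baseline and 30.9, 42, 36.5 and 31.7 CPM with bicuculline under Control-shRNA (log2 fold change -0.64 ± 0.1 (SE), adjusted p = 8.20e-05). The Dnmt3a1-shRNA libraries went from 55.2, 61.7, 50 and 51.4 CPM to 28.2, 28.1, 34.5 and 26.7 CPM (log2 fold change -0.89 ± 0.1 (SE), adjusted p = 1.87e-06), and neither group overlapped its baseline. Lrfn1 (ENSMUSG00000030600.15, chr7:28451980-28468242) was at 129.8, 133, 118 and 116 CPM at baseline and 85.7, 117, 102 and 87.9 CPM with bicuculline under Control-shRNA, where replicate 2 of the treated group reached into the baseline range (log2 fold change -0.34 ± 0.09 (SE), adjusted p = 0.00566). Its Dnmt3a1-shRNA libraries held 135, 144, 116 and 123 CPM and 86.5, 85, 93.7 and 89.6 CPM without overlap (log2 fold change -0.54 ± 0.091 (SE), adjusted p = 8.30e-05), and the call was lost (-0.49) without baseline replicate 2. Lrfn2 was lower below the fold threshold in both groups (-0.20 and -0.25), while Lrfn4 and Lrfn5 overlapped.

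No IL1RAPL, SynCAM or contactin-associated gene was called with bicuculline, and log2 fold changes of these 9 genes ran from -0.18 to 0.37 under Control-shRNA and from -0.49 to 0.31 under Dnmt3a1-shRNA. The lowest, Cntnap3 under Dnmt3a1-shRNA (-0.49 ± 0.22 (SE), adjusted p = 0.0756), was called with library sizes only, without a filter on low counts, and without replicate 1 of the baseline or replicate 3 of the treated libraries. Under Control-shRNA Cntnap4 passed the adjusted test below the fold threshold, at 64.3 to 69.7 CPM before and 83.5 to 90.3 CPM after treatment (log2 fold change 0.37 ± 0.051 (SE), adjusted p = 1.38e-05). On log2(TPM + 1) that change was 0.17 and did not pass (limma, adjusted p = 0.129). By the adjusted p alone, 10 of the 40 genes were higher and 7 lower under Control-shRNA (19.5% and 21.9% of all genes), and 12 were higher and 6 lower under Dnmt3a1-shRNA (20.8% and 25.2% of all genes). Markers of GABAergic neurons were higher with bicuculline too: under Control-shRNA 3 of 5 were called higher, against 10.8% of all genes. Their median log2 fold change there was 0.58, with summed levels of 1040 to 1190 TPM at baseline against 1320 to 1490 TPM after treatment. The 5 excitatory markers summed to 1190 to 1270 TPM at baseline and 867 to 1050 TPM after treatment. On counts 1 of them was called higher and 1 lower under Control-shRNA, with a median log2 fold change of 0.04. Other lists had medians above 0 under Control-shRNA as well. These were 0.31 for 8 astrocyte markers (0 called) and 0.33 for 5 tested markers of fibroblasts and vessels (1 called higher). For 6 general neuronal markers the median was 0.24 (1 called lower), while their summed level was 5420 to 5830 TPM at baseline and 4900 to 5420 TPM after treatment. The part of these markers in the responses of the adhesion genes was not tested.

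**Figure D4:**
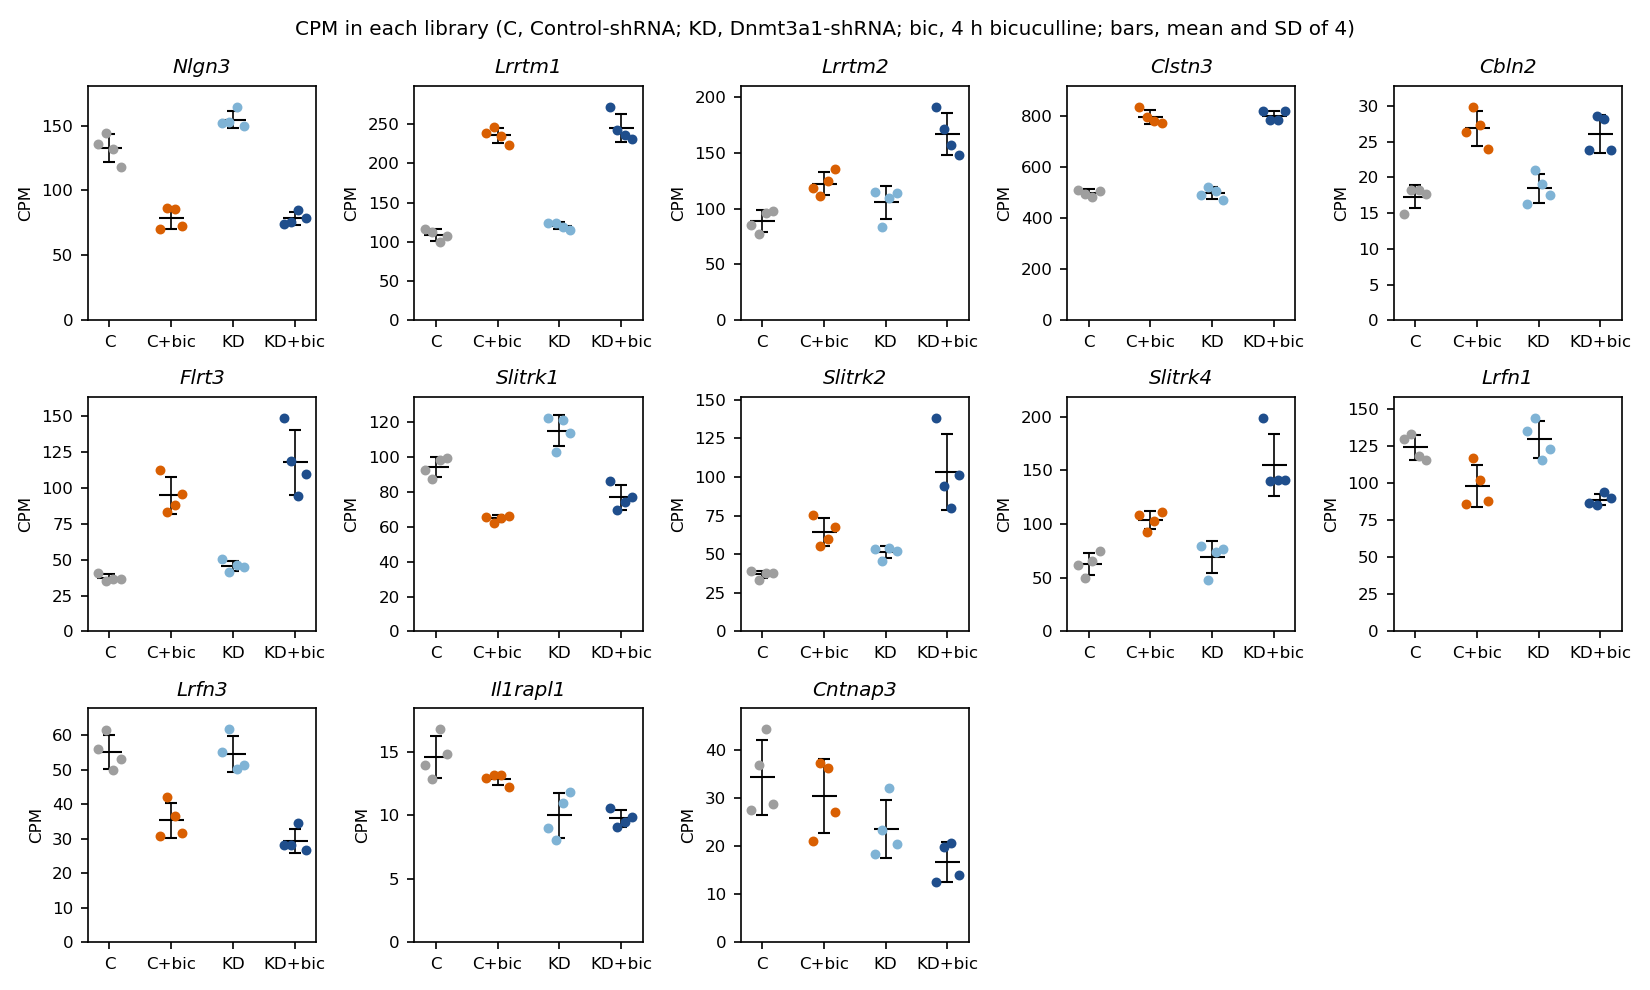
Normalized CPM in each of the 16 libraries for the 13 genes called in any pairwise comparison; bars give the mean and SD of 4 libraries and each axis starts at 0. Treated libraries of Lrrtm1, Clstn3 and Flrt3 stand clear above baseline and those of Nlgn3 and Lrfn3 clear below, whereas Il1rapl1 and Cntnap3 differ between the shRNAs.

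At baseline the knockdown changed 1 of the 40 genes past both thresholds. Il1rapl1 (ENSMUSG00000052372.10, chrX:86740870-88115645), a postsynaptic partner of the LAR-type phosphatase PTPδ and a gene of X-linked intellectual disability, fell to 68.4% of the Control-shRNA level. Its libraries held 13.9, 12.9, 16.8 and 14.8 CPM under Control-shRNA and 9.03, 8.08, 11 and 11.8 CPM under Dnmt3a1-shRNA, without overlap (log2 fold change -0.55 ± 0.11 (SE), adjusted p = 0.0022). The call was lost without Control-shRNA baseline replicate 3 (-0.48), without Dnmt3a1-shRNA baseline replicate 2 (-0.46) and on the TPM values. With bicuculline Il1rapl1 was again lower under Dnmt3a1-shRNA, at 10.6, 9.11, 9.45 and 9.86 CPM against 12.9, 13.1, 13.2 and 12.2 CPM, without overlap and below the fold threshold (log2 fold change -0.40 ± 0.11 (SE), adjusted p = 0.0189). The 2.5% of the list called at baseline compares with 5.83% of all genes (1.76% higher and 4.07% lower). Higher genes made up 30.2% of all calls at baseline, and from 9.11% to 14.2% under library-size or TPM scaling.

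Cntnap3 (ENSMUSG00000033063.8, chr13:64736182-64903955), a contactin-associated protein, was the other gene called lower under the knockdown. At baseline it stood at 27.5, 36.8, 44.3 and 28.8 CPM under Control-shRNA and 18.4, 23.4, 32 and 20.4 CPM under Dnmt3a1-shRNA, with overlapping ranges (log2 fold change -0.54 ± 0.21 (SE), adjusted p = 0.095). Libraries of a group differed more than in most genes, and for each replicate number the Dnmt3a1-shRNA library was below the Control-shRNA one. With the replicate number as a block, which the correlations of the libraries bear out for this comparison, 2 of the 40 genes were called at baseline in place of 1, the added one being Cntnap3 (log2 fold change -0.55, adjusted p = 3.70e-05). With bicuculline Cntnap3 fell past both thresholds, from 21, 37.4, 36.2 and 27.1 CPM to 12.5, 19.9, 20.6 and 14 CPM, without overlap (log2 fold change -0.86 ± 0.22 (SE), adjusted p = 0.0109).

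In bicuculline-treated cultures the knockdown changed 3 of the 40 genes, 7.5% of the list against 5.89% of all genes (2% higher and 3.9% lower). Cntnap3 was lower, and Slitrk2 and Slitrk4 were higher. For Slitrk2 the 138, 94, 79.7 and 101 CPM of the Dnmt3a1-shRNA libraries lay above all of the 75.5, 55, 59.8 and 67.6 CPM of the Control-shRNA libraries (log2 fold change 0.68 ± 0.13 (SE), adjusted p = 0.00164). At baseline Slitrk2 was higher too, short of the fold threshold and without overlap (0.47 ± 0.13 (SE), adjusted p = 0.0212). For Slitrk4 the values were 198, 140.0, 141 and 142 CPM against 108, 92.4, 103 and 111 CPM (log2 fold change 0.58 ± 0.15 (SE), adjusted p = 0.0127), and without replicate 1 of the treated Dnmt3a1-shRNA libraries the log2 fold change was 0.44 and the call was lost, as it was on TPM (0.433 and 0.441 with pseudocounts of 1 and 0.1). Slitrk2 kept its call without that library at 0.51. At baseline the Slitrk4 libraries overlapped (log2 fold change 0.14). All 5 SLITRK genes had a log2 fold change above 0 in treated cultures, from 0.25 to 0.68 under TMM, and from 0.133 to 0.694 over TMM, library-size, DESeq2 size-factor and TPM scaling.

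**Figure D5:**
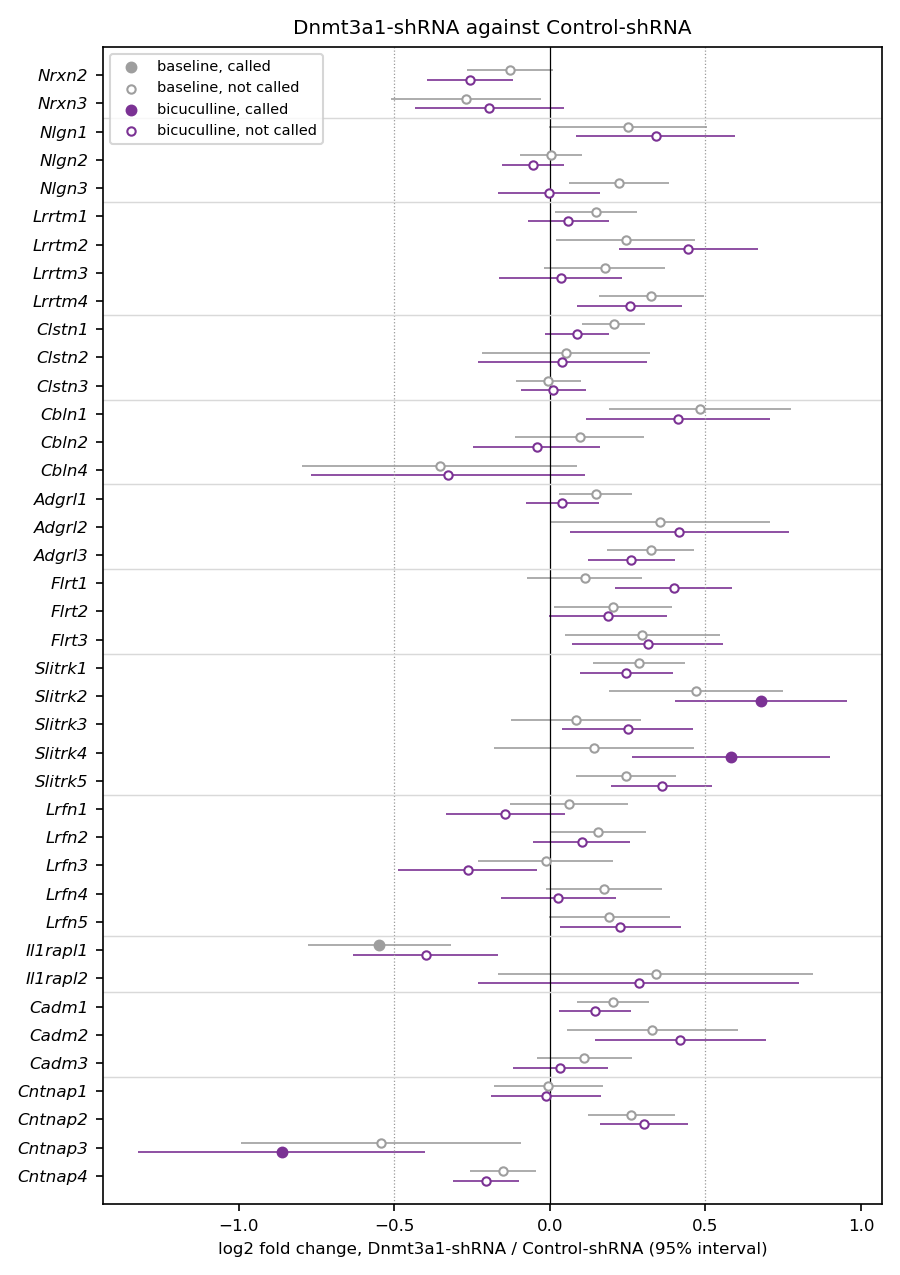
Log2 fold change of Dnmt3a1-shRNA against Control-shRNA with its 95% interval for the 40 genes, at baseline (grey) and with bicuculline (purple); filled points were called. Il1rapl1 at baseline (-0.55) and Cntnap3 with bicuculline (-0.86) are filled on the left, Slitrk2 (0.68) and Slitrk4 (0.58) with bicuculline on the right.

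Many of the other differences under the knockdown were small and positive. By the adjusted p alone, 9 genes were higher and 1 lower at baseline (8.12% and 8.19% of all genes), and 10 were higher and 4 lower with bicuculline (7.69% and 9.99% of all genes). The 9 at baseline were Lrrtm4, Clstn1, Cbln1, Adgrl3, Slitrk1, Slitrk2, Slitrk5, Cadm1 and Cntnap2, with log2 fold changes from 0.20 to 0.48. Adgrl3, a latrophilin, was among them at 88.4 to 97.9 CPM under Control-shRNA and 101 to 125 CPM under Dnmt3a1-shRNA (0.32 ± 0.066 (SE), adjusted p = 0.0026). The median over the list was 0.17 at baseline and 0.09 with bicuculline, against 0.01 and -0.01 over all genes, and 31 and 28 of the 40 values were above 0. On the TPM values (pseudocount 1) these counts were 25 and 18 of 40, and none of the 9 passed the adjusted test. The median of all genes was itself below 0 on TPM, so the TPM counts alone do not place the list against all genes. At baseline the medians of the marker lists moved as well, by 0.40 for 8 astrocyte markers (1 called, summed level 257 to 420 TPM under Control-shRNA and 257 to 508 TPM under Dnmt3a1-shRNA), by 0.23 for 5 excitatory markers (0 called) (1190 to 1270 TPM against 1040 to 1190 TPM) and by -0.12 for 5 GABAergic markers (0 called, 1040 to 1190 TPM against 706 to 906 TPM). The summed TPM of the excitatory markers was lower while their median fold change on counts was above 0. For the 6 general neuronal markers the median was 0.125 (1 called higher), at 5420 to 5830 TPM against 6000 to 6470 TPM, without overlap. Medians were 0.31 for 5 tested markers of fibroblasts and vessels (1 called higher) and 0.06 for 6 tested oligodendrocyte-lineage markers (0 called). The 2 microglial markers tested had a median of -0.57 (1 called lower). The part of these markers in the values of the adhesion genes was not tested.

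The presynaptic neurexins were on the other side. Nrxn2 was at 622 to 671 CPM under Control-shRNA and 560.3 to 618 CPM under Dnmt3a1-shRNA at baseline (log2 fold change -0.13 ± 0.066 (SE), adjusted p = 0.208), and at 573 to 707 against 499 to 540.2 CPM with bicuculline (-0.26 ± 0.066 (SE), adjusted p = 0.0117). Neither pair overlapped, and neither passed the fold threshold. In TPM the gap was wider, from 417 ± 16.8 to 339.6 ± 18.3 TPM at baseline and from 337 ± 41.1 to 259 ± 17.9 TPM with bicuculline (SD, n = 4). TPM weighs each transcript by its length, and the gene has 18 annotated transcripts. Nrxn3 showed log2 fold changes of -0.27 and -0.19 that did not pass the test, and both neurexins stayed below 0 in both comparisons under each scaling tried. Among treated cultures Cntnap4 was lower under the knockdown (-0.20 ± 0.051 (SE), adjusted p = 0.00938), below the fold threshold.

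Across all pairwise comparisons 13 of the 40 genes were called at least once and 27 never, and 11 never passed the adjusted p in any of them. Of all genes tested 33.6% were called at least once and 40.6% never passed the adjusted p. Those 11 were Nlgn1, Lrrtm3, Clstn2, Cbln4, Adgrl1, Adgrl2, Flrt2, Lrfn4, Lrfn5, Il1rapl2 and Cadm3. Their intervals differed in width: for bicuculline under Control-shRNA that of Adgrl1 ran from -0.14 to 0.09 and that of Il1rapl2, a gene sequenced at under 5 CPM, from -0.48 to 0.56. The latter does not exclude a change past the fold threshold. Nor do some intervals of better-covered genes among the 11. For the knockdown these were, for example, Adgrl2 (0.06 to 0.77) and Nlgn1 (0.09 to 0.59) in treated cultures and Cbln4 (-0.80 to 0.09) at baseline.

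The promoter windows of some of these genes are shown because Dnmt3a methylates cytosines, mainly at CG dinucleotides, and because activity-regulated genes are often bound by CREB; no methylation or binding was measured here. RefSeq windows of 250 bases before the annotated start were used for 28 of the 40 genes (37 windows). The called genes Lrrtm2 and Cbln2 lie on a chromosome left out of these 37 windows, while the set of all windows was not filtered by chromosome. The called genes Nlgn3, Slitrk4 and Lrfn1 had no window among the 37 either, so their promoters were not searched. The windows of the listed genes held the following. The median was 11 CG dinucleotides and 59.6% G and C in the 37 windows, against 6 and 52.4% over all 32851 windows. The letters TGACGTCA (the CREB motif, which reads the same on both strands) occurred in 2 of the 37 windows, 1 of Slitrk2 and 1 of Clstn2, and in 1.55% of all windows. TGACTCA or TGAGTCA (the AP-1 motif, both strands) occurred in 1 of the 37 and 4.46% of all windows, and CACGTG (the E-box, the same on both strands) in 3 of the 37 and 6.02% of all. The 4 windows shown, on GRCm38.p6 and 5′ to 3′ in the direction of the gene with CG in capitals, belong to a gene that rose with bicuculline and with the knockdown, one that fell with bicuculline, the one with the widest response and the one called under the knockdown at baseline.
Slitrk2, chrX:66649068-66649317, plus strand: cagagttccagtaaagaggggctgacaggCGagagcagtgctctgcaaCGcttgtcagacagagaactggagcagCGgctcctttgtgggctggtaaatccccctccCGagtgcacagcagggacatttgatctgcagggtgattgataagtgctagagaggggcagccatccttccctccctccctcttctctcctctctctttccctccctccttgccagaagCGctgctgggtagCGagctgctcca
Slitrk1, chr14:108914240-108914489, minus strand: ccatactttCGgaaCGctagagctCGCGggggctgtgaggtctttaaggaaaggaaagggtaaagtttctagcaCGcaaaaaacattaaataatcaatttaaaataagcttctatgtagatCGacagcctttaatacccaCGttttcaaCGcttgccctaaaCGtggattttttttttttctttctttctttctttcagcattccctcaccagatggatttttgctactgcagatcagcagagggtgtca
Flrt3, chr2:140671477-140671726, minus strand: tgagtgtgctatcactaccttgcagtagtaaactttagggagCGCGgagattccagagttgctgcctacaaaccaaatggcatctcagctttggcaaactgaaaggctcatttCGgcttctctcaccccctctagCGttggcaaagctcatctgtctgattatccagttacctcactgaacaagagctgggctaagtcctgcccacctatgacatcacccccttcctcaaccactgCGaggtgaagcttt
Il1rapl1, chrX:88115949-88116198, minus strand: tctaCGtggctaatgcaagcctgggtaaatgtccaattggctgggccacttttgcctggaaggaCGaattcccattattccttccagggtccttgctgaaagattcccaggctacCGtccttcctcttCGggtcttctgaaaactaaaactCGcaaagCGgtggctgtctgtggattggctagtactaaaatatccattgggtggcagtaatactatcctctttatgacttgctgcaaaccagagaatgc
These windows held 6, 9, 5 and 6 CG dinucleotides in the order shown, and none of the 3 motifs. The CREB motif of Slitrk2 lies in the other RefSeq window of that gene, which precedes a start inside the gene. The motif search was added after the responses were seen and is a description.

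Position and length were also looked at. On the X chromosome lie 5 of the 40 genes and 4 of the 13 called ones, namely Nlgn3, Slitrk2, Slitrk4 and Il1rapl1. Of all genes tested 3.25% lie there, and of those called in any pairwise comparison 3.32%; 34.3% of the 560 tested genes of the X chromosome were called at least once, against 33.6% of all genes. The genomic spans of the list run from 3883 bp (Lrfn4) to 2244857 bp (Cntnap2). Across the 40 genes the logarithm of the span and the log2 fold change had Pearson's r from -0.12 to -0.10 over the 4 pairwise comparisons. Spearman's rho ran from -0.10 to 0.04. Over the 17210 tested genes with a span, r ran from -0.04 to 0.06 and rho from -0.02 to 0.08. This is a description in which all points share the same libraries.

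Of 47 further adhesion genes of these pathways, chosen as binding partners or relatives of the listed ones and all tested, 9 were called with bicuculline under Control-shRNA (6 higher, 3 lower) and 11 under Dnmt3a1-shRNA (7 higher, 4 lower). These are 19.1% and 23.4% of the 47, near the 21.9% and 25.8% of all genes. C1ql3, a secreted relative of the cerebellins, rose from 53.1 to 67.4 CPM to 155 to 219 CPM (1.60), followed by the netrin-G receptor gene Lrrc4 (1.29) and by C1ql2 (1.14), and Unc5a, an FLRT receptor, fell from 118 to 139.7 CPM to 70.7 to 87 CPM (-0.74), with Lrrc4b (-0.67) and Adgrb3 (-0.54) behind it. Under Dnmt3a1-shRNA the same 6 genes had log2 fold changes of 1.45, 1.26, 1.11, -1.03, -0.90 and -0.66. The knockdown changed 10 of the 47 at baseline (8 higher, 2 lower) and 7 with bicuculline (5 higher, 2 lower), 21.3% and 14.9% of the 47 against 5.83% and 5.89% of all genes. These counts depended on the scaling: they were 5 at baseline with library sizes only, 2 at baseline and 3 or 4 with bicuculline on TPM, and as low as 6 and 5 with 1 library left out. The 47 were chosen with earlier results of these data known, so their shares against all genes are a description only. Mdga1, which binds neuroligins and blocks their contact with neurexin, lay at 73.6 to 126 CPM under Control-shRNA and 137 to 313 CPM under Dnmt3a1-shRNA at baseline (1.16 ± 0.24 (SE), adjusted p = 0.00273), and the knockdown difference in treated cultures was 1.1. Cntn2 (0.65) and Igsf9 (0.64) at baseline and Igsf9 (0.70) and the teneurin gene Tenm1 (0.65) with bicuculline were the next higher ones. The teneurin gene Tenm3, a latrophilin ligand, fell in both (-0.72 and -0.65), as did Cbln3 (-0.69 and -1.03), which stood at only 1.37 to 2.04 CPM under Control-shRNA at baseline.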

How the data were processed

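The authors trimmed the 100 bp paired-end reads with Trim Galore 0.6.4 and quantified them with kallisto on GRCm38.p6 (version 0.46.1 in the methods, 0.4.6 in the submitters' processing notes). They deposited an estimated count per gene and library, not scaled, and a TPM value that corrects for length and depth. Whether the counting used strand is not given in the sources used here, so genes with an antisense neighbour may share reads. Groups and replicate numbers came from the labels. Estimated counts were rounded and tested with edgeR 4.0.16 (R 4.3.3): TMM, filterByExpr (count minimum 10) and a quasi-likelihood fit of the 4 groups without a block, with Benjamini-Hochberg adjustment over 17222 genes. Voom with limma 3.58.1, the study's test, and DESeq2 1.42.0 were alternatives. Symbols and coordinates came from GENCODE M21 (55144 of 55385 identifiers matched without version).

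The 40 genes, the partner and marker lists and the tests were chosen with earlier results of these data known. Values in every library are given for genes called in a comparison, and partners are named where among the 3 largest called changes of a direction. The test was tried on simulated counts, and recovery of 2-fold changes was required only for genes above 5 CPM, a limit set after weaker genes were often missed, which leaves out Il1rapl2. No pair of libraries of a group agreed within sampling noise (chi-square 7.64 to 42.6 per degree of freedom). Deviations of same-numbered libraries correlated at 0.142 to 0.221 for bicuculline under Control-shRNA and 0.204 to 0.355 for the knockdown at baseline, which pairs them by a limit of 0.1. For bicuculline under Dnmt3a1-shRNA they ran from 0.0631 to 0.337, and for the knockdown in treated cultures from 0.0667 to 0.388. Replicate 4 alone missed the limit there, so these comparisons were not counted as paired, which does not show that they are unpaired.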

Additional observations from a re-analysis of the deposited data

Results flagged for a closer look

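In each group of 4 libraries, the highest and the lowest normalized CPM of each of the 40 genes was set against the other libraries by Dixon's criterion at the 95% level for the share of the range taken by the gap. Of 160 groups of values 9 stood out, where chance gives about 1 in 20, or 8. In the Dnmt3a1-shRNA baseline library of replicate 2, this applied to Nrxn3 at 114 CPM (lowest of the group, the others 168 to 174 CPM), Lrrtm2 at 83.6 CPM (lowest of the group, the others 109.5 to 114 CPM) and Slitrk4 at 47.8 CPM (lowest of the group, the others 74.3 to 79.6 CPM). In the Dnmt3a1-shRNA bicuculline library of replicate 1, this applied to Nlgn1 at 136 CPM (highest of the group, the others 102 to 108 CPM), Slitrk4 at 198 CPM (highest of the group, the others 140.0 to 142 CPM) and Cadm2 at 234 CPM (highest of the group, the others 183 to 186 CPM). In the Dnmt3a1-shRNA baseline library of replicate 3, this applied to Lrrtm4 at 32.8 CPM (highest of the group, the others 27.4 to 27.8 CPM). In the Control-shRNA baseline library of replicate 1, this applied to Cbln2 at 14.9 CPM (lowest of the group, the others 17.7 to 18.3 CPM). In the Dnmt3a1-shRNA baseline library of replicate 1, this applied to Adgrl1 at 807 CPM (highest of the group, the others 724 to 732 CPM). Without Dnmt3a1-shRNA bicuculline replicate 1, the knockdown called 2 of the 40 genes in treated cultures in place of 3, Slitrk4 being lost. Without Dnmt3a1-shRNA baseline replicate 2, the baseline comparison called Slitrk2 in place of Il1rapl1. The cause of these single values was not tested.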

How the results depend on the processing

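The 23 calls of single listed genes were each recomputed under the 18 alternatives that could change them (8 of them leave out a library of the compared groups), and of these values 399 kept the call, 15 lost it and 0 turned direction. Lost calls were Clstn3 (0.463 and 0.464) and Cbln2 (0.403 and 0.423) with bicuculline under Control-shRNA, Lrrtm2 (0.46 and 0.47) under Dnmt3a1-shRNA, Il1rapl1 at baseline (-0.434 and -0.574) and Slitrk4 with bicuculline (0.433 and 0.441) under the knockdown, each with limma on TPM at pseudocounts of 1 and 0.1, and Cbln2 with library sizes only (0.473). The others went when a library was left out. Counts of listed genes called were 9 to 10, 10 to 12, 1 to 3, 2 to 4 and 0 to 0 over the libraries left out in turn (bicuculline under Control-shRNA and under Dnmt3a1-shRNA, knockdown at baseline and with bicuculline, interaction), and those of partners 8 to 10, 10 to 12, 6 to 10, 5 to 8 and 0 to 0. Without the fold threshold the listed genes called were 17, 18, 10 and 14 and the partners 20, 21, 16 and 15. At baseline the knockdown called 2 listed genes without a filter on low counts, 2 with the replicate block and 0 on TPM with either pseudocount, and 5 partners with library sizes only and 2 on TPM with either pseudocount. With bicuculline it called 3 and 4 partners on TPM at pseudocounts of 1 and 0.1. The replicate block, with its pairing of same-numbered libraries, changed no other count by over 1.5 times, giving 9, 10, 2, 3 and 0 listed genes in the order above.

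Library sizes, TPM with a pseudocount of 1 and TPM with 0.1 moved the all-gene median log2 change to -0.153, -0.141 and -0.187 (bicuculline, Control-shRNA), -0.157, -0.131 and -0.177 (Dnmt3a1-shRNA), -0.0725, -0.0799 and -0.104 (knockdown, baseline) and -0.0757, -0.0745 and -0.0976 (with bicuculline), and higher genes among calls from 48.9% to 32.8%, 30.6% and 30.2% (bicuculline, Dnmt3a1-shRNA), 30.2% to 14.2%, 9.11% and 10% and 33.9% to 19.2%, 14.5% and 14.5% (knockdown). Depth limits Il1rapl2 most. The cause of these shifts was not tested.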

Other observations

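For Nrxn2 the counts and the TPM values gave changes of different size. On counts its log2 fold change with bicuculline was -0.07 (Control-shRNA) and -0.19 (Dnmt3a1-shRNA), and on log2(TPM + 1) with limma -0.31 and -0.39. The knockdown gave -0.13 and -0.26 on counts and -0.29 and -0.38 on TPM. At baseline Nrxn2 was the single listed gene that passed the adjusted test for the knockdown on TPM with a pseudocount of 1 (adjusted p = 0.0217, limma). Adgrl3, the latrophilin-3 gene, differed likewise with bicuculline, at -0.06 on counts and -0.36 on TPM under Control-shRNA. The median of all genes was lower on TPM than on counts in each of the 4 pairwise comparisons, and the mix of transcripts was not analysed here.

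Exons of Nrxn2, Adgrl1 and Adgrl3 overlap genes on the opposite strand by 682, 1107 and 1582 bases (Slc22a12, Gm10644 and Gm16054). Those of Lrrtm4 and Nlgn1 do so by 1543 and 1229 bases (Gm4409 and A830092H15Rik). Further listed genes have shorter overlaps of this kind, among them Cntnap4 (503 bases) and Nrxn3 (439 bases). Exons of Cadm3 overlap Ackr1 on the same strand by 361 bases. Reads at these overlaps were not separated further.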
